A study of Mus musculus with 4 samples.

Results

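The 84 genes described here carry the names of subunits of the mitochondrial respiratory chain and of the ATP synthase. The names also catch 4 genes that were not taken as subunits, Cox4nb, Cox7a2l, Atp5s and Atp5sl, which were kept in the counts. The members were taken from the 22479 gene names in the table by name alone, as every name that starts with Nduf, Sdh, Uqcr, Cox4 to Cox8 or Atp5 and goes on with the letters or digits of a subunit. By these names 36 belong to complex I, 4 to complex II, 8 to complex III, 19 to complex IV and 17 to complex V. Mammary gland RNA came from 2 miR-21+/+ mice (WT) and 2 miR-21-/- mice (KO), all virgin, 2 months old and of the mixed strain 129SV::FVB/N::C57BL/6. The labels give the genotype for the whole animal and name no Cre, and the whole gland was used, so that epithelium, fat pad and any attached tissue contributed RNA. The table gives a single pooled FPKM value (fragments mapped to a transcript, scaled to its length and to the number of mapped fragments) for each genotype. The spread between the mice is therefore unknown, no difference below was tested, and the ratios compare the pooled values only.

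The respiratory chain passes electrons from NADH (complex I) and succinate (complex II) through complex III to oxygen at complex IV, and pumps protons across the inner mitochondrial membrane. Complex V, the ATP synthase, lets the protons flow back and makes ATP. Most subunits are encoded in the nucleus, and a small core of complexes I, III, IV and V is encoded by the mitochondrial genome. Brown fat and muscle are rich in these complexes, and several complex IV subunits have a second isoform used in those tissues.

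In the KO gland nearly all of these transcripts were slightly lower than in the WT gland. Above 5 FPKM in at least 1 genotype were 80 members, and 78 of them (97.5%) were lower in KO, against 56.9% of the 9651 named loci above the same minimum. Their median log2 ratio of KO over WT was -0.28 (0.826-fold, a change of -17.4%), with quartiles of -0.33 and -0.19. The median of all named loci was -0.03, and the median of the members lay at percentile 13.8 of the named loci. Between the members the ratios had an SD of 0.19 on the log2 scale, against 0.39 over all named loci, and 74 of the 80 lay between 0 and -0.5. The summed FPKM of the members was 11223 in WT and 9247 in KO. Without the 4 names that were not taken as subunits, 75 of 76 genes were lower, with the same median to 2 decimals, -0.28.

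The difference was small for each gene and the counts depend on the size asked for. At 1.2-fold or more, 45 members (56.3%) were lower, against 14.5% of named loci. At 1.3-fold or more, 11 members (13.8%) were lower, against 8.86%. This excess was not seen among genes above 50 FPKM, with 14.1% of 71 members and 16.4% of 1350 named loci lower by 1.3-fold. At 1.5-fold or more only Cox7a1 and Cox8b were lower (background 4.27%), and no member was lower by 2-fold (background 1.42%). Higher in KO were 2 of the 80 members, against 43.1% of named loci. Cox6a2 alone was higher by 1.2-fold, 1.3-fold or 1.5-fold, where the background was 10.5%, 7.16% and 3.81%, and no member was higher by 2-fold, where it was 1.25%.

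**Figure D1:**
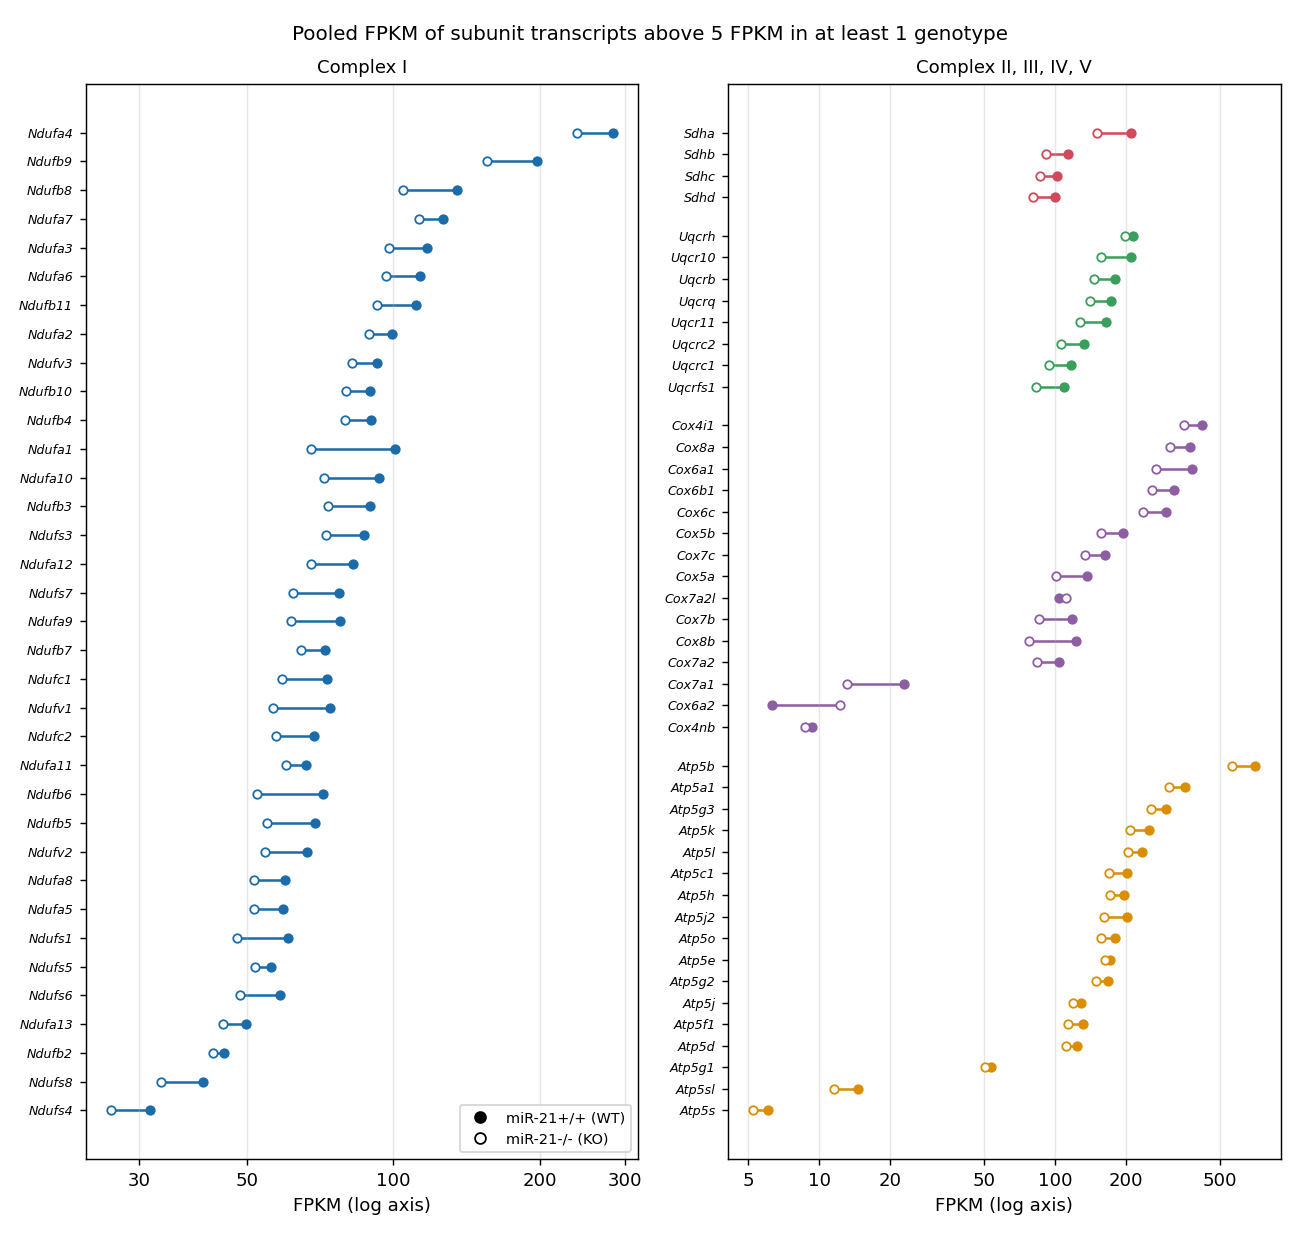
FPKM on a log axis for members above 5 FPKM in at least 1 genotype, apart from a gene that is not reported here, filled for WT and open for KO, 1 pooled value each, ordered within each complex by mean FPKM. The open point lies right of the filled point for Cox6a2 and Cox7a2l, and left of it for the other genes drawn.

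With all names above 5 FPKM counted, complex V had the highest median per gene, 180 FPKM in WT and 162 in KO. Complex III (169 and 134), complex IV (137 and 111), complex II (108 and 88.9) and complex I (77.6 and 63.5) followed. These are levels per length of transcript and can be set side by side. The order depends on the names counted. Complex IV without Cox6a2, Cox7a1, Cox8b, Cox4nb and Cox7a2l had a higher median than complex V in both genotypes. It also exceeded the medians of the catalytic F1 head and of the stalk and membrane part of complex V. In WT 47 members exceeded 100 FPKM, and in KO 34 did.

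Complex I, the NADH dehydrogenase, was lower in KO for all 36 members, with a median log2 ratio of -0.27. At 1.2-fold 20 of them (55.6%) were lower, against 14.5% of named loci. At 1.3-fold 3 were (8.33%), no excess over the 8.86% of named loci. The 7 nuclear core subunits carry the flavin, the iron-sulfur clusters and the quinone-binding site. All 7 were lower by 1.2-fold or more, within a narrow range from -0.39 to -0.27 (median -0.31, SD over genes 0.045). Ndufv1, which binds FMN and NADH (chr19:4007505-4012725, mm9), was at 74.0 FPKM in WT and 56.6 in KO, the lowest ratio of the core. Ndufs1, the largest iron-sulfur subunit, was at 60.6 and 47.6, a log2 ratio of -0.35, and its locus carries the status FAIL in the table, which marks a failed computation by the authors' program.

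Other core subunits stood close together. Ndufv2 had a log2 ratio of -0.29 (66.4 FPKM in WT and 54.5 in KO) and Ndufs7 -0.31 (77.4 and 62.3). Ndufs8 was at -0.28 (40.6 and 33.3), and Ndufs3 at -0.27 (87.2 and 72.6).

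The 29 other complex I genes, mostly accessory subunits that surround the core, had a median of -0.26. By 1.2-fold or more 13 were lower (44.8%, against 14.5% of named loci). Ndufa1, a small membrane subunit needed for assembly (chrX:34727584-34731233), had the lowest ratio of the complex at -0.57, from 101 FPKM in WT to 67.8 in KO. Ndufb6, a subunit of the membrane arm (chr4:40217696-40226401), was at 71.5 and 52.4 (-0.45). At the other end Ndufb2 was at 44.7 and 42.5 (-0.07), in a locus whose exons overlap those of other genes. The most abundant was Ndufa4, at 283 and 239 (-0.24), which is named for complex I and works with complex IV. Ndufa7 shares its row with Kank3, so its value of 127 in WT and 113 in KO (-0.17) belongs to the merged locus. Ndufs4 had the lowest level, 31.5 and 26.2.

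Complex II, succinate dehydrogenase, also works in the citric acid cycle and is encoded in the nucleus alone. All 4 subunits were lower in KO, with a median of -0.31. Sdha, the flavoprotein that oxidises succinate (chr13:74459703-74487688), was at 210 FPKM in WT and 150 in KO, a log2 ratio of -0.48. Sdhb, the iron-sulfur subunit, was at 114 and 91.4 (-0.31). The membrane anchors Sdhc (101 and 86.4) and Sdhd (100.1 and 80.9) had ratios of -0.23 and -0.31.

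Complex III moves electrons from ubiquinol to cytochrome c. Its 8 members were all lower in KO, with a median of -0.31. By 1.2-fold or more 7 of them were lower (87.5%, against 14.5% of named loci). Uqcr10, a small subunit (chr11:4601971-4604347), had the lowest ratio, from 210 FPKM to 157 (-0.42). Uqcrfs1, the Rieske iron-sulfur protein (chr13:30632181-30637185), was at 109 and 83.2 (-0.39). Uqcrh, the hinge protein, had the highest level and the smallest difference, at 215 and 198 (-0.12). The large core proteins Uqcrc1 and Uqcrc2 had ratios of -0.31 and -0.32.

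**Figure D2:**
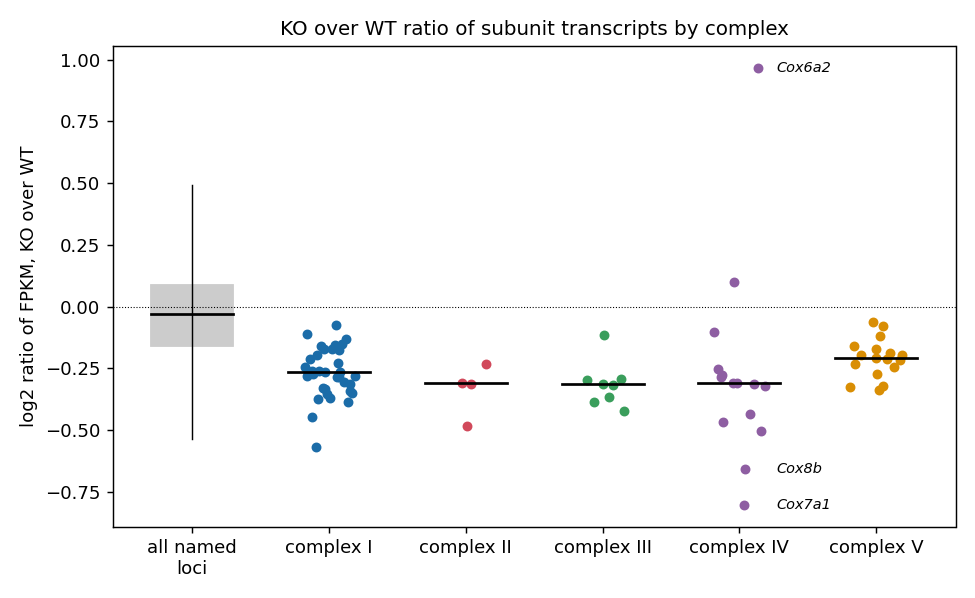
Log2 ratio of FPKM, KO over WT, for the 80 members by complex (points, 1 a gene; black bars, medians). For all named loci above 5 FPKM the grey box spans the quartiles, its bar the median and the line the 5th to 95th percentile. The medians of the complexes lie between -0.31 and -0.21, and the widest spread is in complex IV.

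Complex IV, cytochrome c oxidase, held both the lowest and the highest ratio of the whole set. Of its 15 members above 5 FPKM 13 were lower in KO, with a median of -0.31 and an SD over genes of 0.40. By 1.2-fold 11 were lower (73.3%, against 14.5% of named loci), and by 1.3-fold 5 (33.3%, against 8.86%). Of the subunits found in all tissues, Cox4i1 was the most abundant, at 419 FPKM in WT and 351 in KO (-0.25). Cox6a1 (chr5:115795663-115798964) was at 381 and 268 (-0.50). Cox7b, on the X chromosome (chrX:103211039-103217789), was at 118 and 85.3 (-0.47), and Cox5a (chr9:57369039-57380233) at 137 and 101 (-0.43). With the tissue isoforms Cox6a2, Cox7a1 and Cox8b left out, together with Cox4nb and Cox7a2l, 10 members remained, all 10 lower in KO, with the same median to 2 decimals, -0.31.

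The isoforms used in muscle and brown fat went in both directions. Cox7a1 (chr7:30969136-30983836) was at 23.0 FPKM in WT and 13.2 in KO, a log2 ratio of -0.80, the lowest of all members. Its row spans a locus that also holds Capns1, which has a row of its own with 188 FPKM in WT and 185 in KO. Cox8b (chr7:148084841-148086345) was at 123 and 77.6 (-0.66). Cox6a2 (chr7:135317460-135349880) was at 6.29 in WT and 12.3 in KO, a log2 ratio of 0.97. Its locus overlaps exons of Itgad, which has its own row at 0.123 and 0.201 FPKM.

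As shares of a subunit's summed FPKM these shifts were modest. Cox6a2 made up 1.63% of the COX6A transcripts in WT and 4.38% in KO, and Cox6a1 the rest. Cox8b made up 24.7% of COX8 in WT and 20.2% in KO, and Cox8a, itself at 373 and 307 FPKM, 75.3% and 79.8%. Of the COX7A isoforms, Cox7a1 made up 18.05% of their sum in WT and 13.6% in KO, and Cox7a2 (104 and 83.8 FPKM) 82.0% and 86.4%. If the related Cox7a2l, a factor that joins complexes III and IV into supercomplexes, is counted in the sum, Cox7a1 went from 9.93% to 6.32%, Cox7a2 from 45.1% to 40.3% and Cox7a2l from 45.0% to 53.4%, so that the direction for Cox7a2 depends on this choice. The FPKM of Cox7a2l was 104 in WT and 111 in KO, a log2 ratio of 0.10, and it was the other member above 5 FPKM that was higher in KO.

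**Figure D3:**
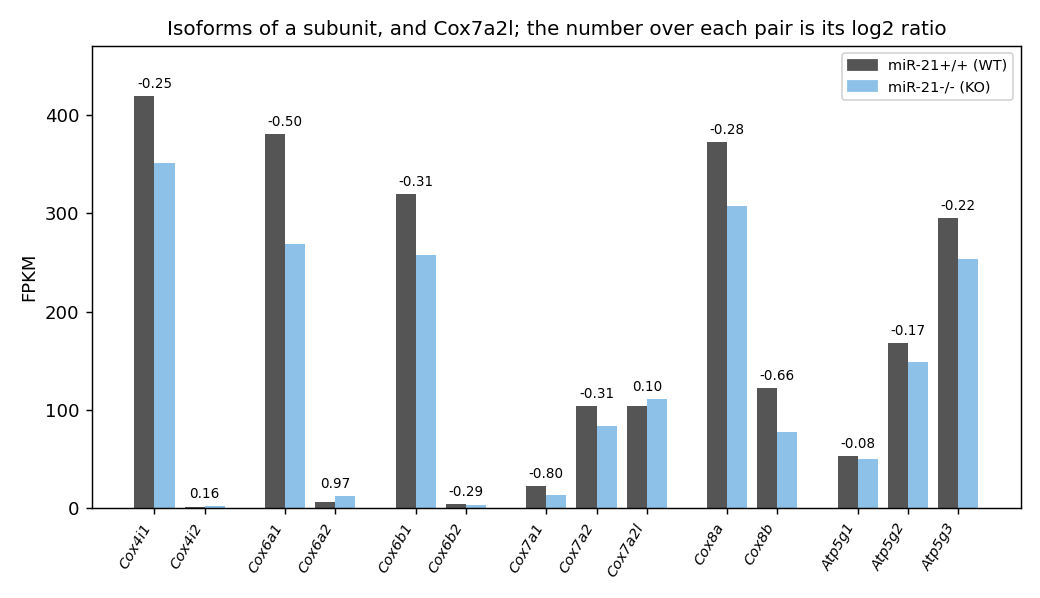
FPKM in WT (dark) and KO (light) for isoforms of the same subunit, and for Cox7a2l, which is related to COX7A and is not an isoform of it, 1 pooled value per bar, with the log2 ratio of KO over WT above each pair. Cox6a2, Cox4i2 and Cox7a2l have a bar that is higher in KO, and the other genes shown are lower.

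The 4 members under 5 FPKM in both genotypes were all isoforms of complex IV. Cox4i2, a lung isoform, was at 1.87 FPKM in WT and 2.09 in KO, and made up 0.444% and 0.592% of COX4. Cox6b2, a testis isoform, was at 4.28 and 3.51. Cox7b2 was listed at 0 in both genotypes, and Cox8c at 0.0464 in WT and 0 in KO.

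Complex V showed the smallest differences. All 17 members were lower in KO, with a median of -0.21. By 1.2-fold or more 4 were lower (23.5%, against 14.5% of named loci), and none by 1.3-fold (against 8.86%). Atp5b, the catalytic beta subunit (chr10:127520363-127527444), was the most abundant transcript of the whole set, at 707 FPKM in WT and 564 in KO (-0.33). Atp5a1, the alpha subunit, was at 357 and 303 (-0.23). The 5 subunits of the catalytic F1 head had a median of -0.23 and the 10 of the stalk and membrane part -0.20. Atp5e, the epsilon subunit, was the least different, at 170 and 163 (-0.06). Atp5sl, a related name that is not a subunit, had the lowest ratio of the group, at 14.6 and 11.5 (-0.34).

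Subunit c, which forms the rotor ring, is made as an identical mature protein from 3 genes. Atp5g3 was at 295 FPKM in WT and 254 in KO (-0.22), Atp5g2 at 168 and 149 (-0.17), and Atp5g1 at 53.3 and 50.4 (-0.08). Their shares of the sum stayed within 2 percentage points, from 57.2% to 56.0% for Atp5g3, from 32.5% to 32.9% for Atp5g2 and from 10.3% to 11.1% for Atp5g1.

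The mitochondrial genome itself appears in the table as a single unnamed locus (chrM:6-16299), which holds the RNA of the mitochondrially encoded subunits together with the ribosomal and transfer RNAs. It was at 6117 FPKM in WT and 4541 in KO, a log2 ratio of -0.43 (0.742-fold). None of the 26 names searched for the mitochondrially encoded subunits was found in the table, so no value per gene is given.

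The members were then examined for what they share beyond their names. They lie on 19 chromosomes, and their transcripts are short, with a median of 892 nucleotides against 2937 for all names above 5 FPKM. The Spearman correlation of the ratio with transcript length across the 80 genes was 0.02, a description only, since all points come from the same libraries. Other named genes with transcripts of at most 1000 nucleotides (601) had a median ratio of -0.05 and were lower in KO in 62.2%, and the 45 members that short had a median of -0.26, with 44 lower.

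For the miR-21 seed, the mature RNA is shown with bases 2 to 8 in capitals, as printed by RefSeq (GRCm38.p6, chr11:86584120-86584141, minus strand).
mmu-miR-21a-5p: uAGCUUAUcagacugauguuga
The matching site in a transcript reads ATAAGCT. It was found in the annotated 3′ UTR of 1 of the 80 members (1.25%), against 6.82% of 9738 names above 5 FPKM, and the UTRs of the members were short, with a median of 202 nucleotides against 1141. The member was Atp5g1, whose site is shown in capitals within 29 bases of its 3′ UTR (mm9, chr11:95932330-95932358, minus strand).
Atp5g1: atgcctaggccATAAGCTaggctgcttcc
This site lies 1760 bases outside the locus that the table gives for Atp5g1, and in a UTR of 4252 nucleotides in the annotation. The log2 ratio of Atp5g1 was -0.08, and the members without a site had a median of -0.28.

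Promoters were examined because many genes of the respiratory chain carry binding letters for NRF1 or YY1, transcription factors of mitochondrial genes, near their start. RefSeq held a promoter of 250 bases before to 50 after the start for 69 of the 84 members, 67 of them above 5 FPKM. The NRF1 letters GCGCANGCG were found on either strand in 20 of the 67 (29.9%), against 14.2% of expressed names and 6.35% of all promoters. The YY1 letters AAGATGGCG were found in 8 (11.9%), against 3.40% and 1.49%. The ETS letters CCGGAAGT were found in 5 (7.46%), against 8.46% and 3.93%, and the ERR letters TCAAGGTCA in 2 (2.99%), against 0.182% and 0.407%. Motifs may overlap each other. The members with the NRF1 letters had a median log2 ratio of -0.22 and those without -0.28. A match only says that the letters are present.

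A promoter stretch of 60 bases with the NRF1 letters, in capitals, is shown for members of complexes I, II, IV and V (GRCm38.p6). All are on the minus strand and are written 5′ to 3′ in the direction of the gene.
Ndufs6 (chr13:73328483-73328542): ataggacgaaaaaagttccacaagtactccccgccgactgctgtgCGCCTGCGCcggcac
Sdha (chr13:74350305-74350364): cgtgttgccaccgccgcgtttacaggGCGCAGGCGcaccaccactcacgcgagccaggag
Cox6a1 (chr5:115349087-115349146): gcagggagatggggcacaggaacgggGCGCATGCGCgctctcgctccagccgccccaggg
Atp5k (chr5:108434416-108434475): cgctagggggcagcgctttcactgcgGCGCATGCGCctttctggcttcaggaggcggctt
The log2 ratios of these genes were -0.27 for Ndufs6, -0.48 for Sdha, -0.50 for Cox6a1 and -0.27 for Atp5k. All lie below the median of -0.22 of the members with the NRF1 letters, so they do not stand for that group. Uqcr11 and Uqcrc1 of complex III also carry the letters and are not shown.

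Genes that work beside the complexes were lower to a smaller degree. Of 30 assembly factors found, 23 exceeded 5 FPKM, with a median of -0.19. Lower in KO were 21 of these (91.3%), against 56.9% of named loci. By 1.2-fold 4 were lower (17.4%), close to the 14.5% of named loci. Cox16 had the lowest ratio (-0.38) and Acad9 the highest (0.19). Surf1, whose row is merged with Surf4, was at 97.3 FPKM in WT and 86.9 in KO. Of 20 mobile carriers and cristae proteins above 5 FPKM 17 were lower (85%, against 56.9% of named loci), with a median of -0.19. Slc25a5, the adenine nucleotide carrier of most tissues, was at 244 and 183 (-0.41), and Slc25a4, its muscle isoform, at 153 and 165 (0.11). Cytochrome c (Cycs) was at 54.5 and 42.9 (-0.35). Subunits that the name pattern does not catch were Cyc1 of complex III (-0.30), Ndufab1 of complex I (-0.41) and Usmg5 of complex V (-0.21). Ndufa4l2, which the pattern also misses and which is assigned to no complex here, was at 4.92 and 5.27 FPKM (0.10).

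Known regulators of these genes above 5 FPKM showed little difference as a list. These 11 had a median of -0.01, with 8 lower (72.7%, against 56.9% of named loci). With a minimum of 1 FPKM, 16 regulators had a median of -0.06. Tfam, which packages and transcribes mitochondrial DNA, was at 8.34 FPKM in WT and 8.29 in KO, and Nrf1 at 6.77 and 7.30 (0.11). Tfb2m had the lowest ratio (-0.24) and Pprc1 the highest (0.29). Esrra, merged with Prdx5, was at 126 and 117 (-0.10). The coactivators Ppargc1a and Ppargc1b were under 5 FPKM in both genotypes and so are not among the 11. Ppargc1a was at 3.87 in WT and 1.42 in KO (-1.44) and Ppargc1b at 3.82 and 2.36 (-0.70).

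Other large protein complexes were used for comparison, chosen by name pattern. Of 75 mitochondrial ribosomal protein genes 64 were lower in KO, with a median of -0.10. By 1.2-fold or more 4 were lower (5.33%, against 14.5% of named loci above 5 FPKM). Of 37 proteasome subunit genes 28 were lower, with a median of -0.05 and 1 by 1.2-fold (2.70%). Of 78 cytosolic ribosomal protein genes 6 were lower, with a median of 0.09. Among all 1350 named loci above 50 FPKM 63.7% were lower, with a median of -0.07. The 71 members above 50 FPKM had a median of -0.28, and 70 were lower. By 1.2-fold or more 57.7% of these members were lower, against 24.96% of the named loci above 50 FPKM. By 1.3-fold or more 14.1% of these members were lower, against 16.4%, so at that limit the members showed no excess.

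**Figure D4:**
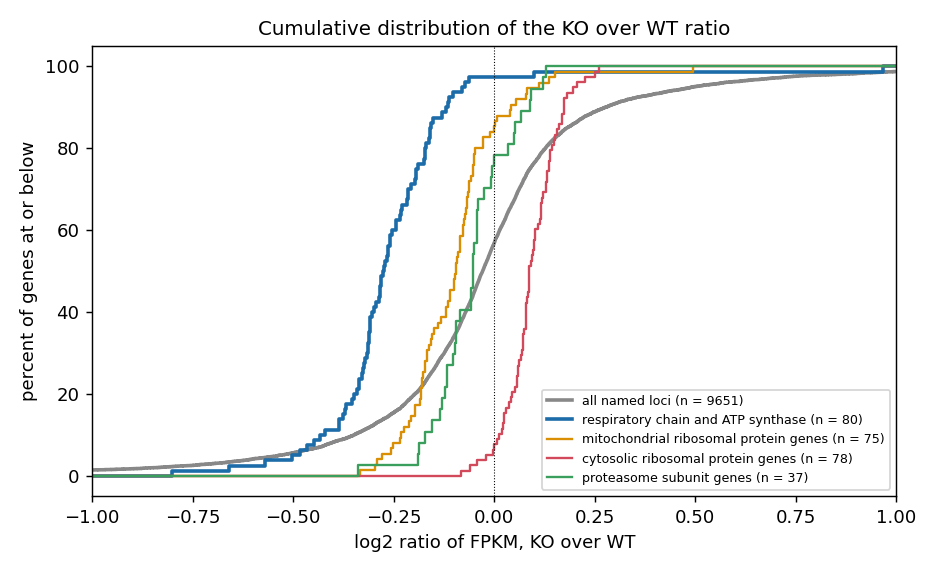
Percent of genes at or below each log2 ratio of KO over WT, for the 80 members, all named loci above 5 FPKM and the 3 comparison groups of genes. The curve of the members rises most between its quartiles of -0.33 and -0.19, with a median of -0.28 against -0.10 for mitochondrial ribosomal protein genes, -0.05 for proteasome subunit genes, 0.09 for cytosolic ribosomal protein genes and -0.03 for all named loci.

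Markers of several cell types differed between the pooled values. Their counts and sums hold every marker listed, also Elovl3, Dio2 and Cr2, which were under 5 FPKM in both genotypes. In bulk tissue, fewer cells of a type and less RNA per cell cannot be told apart. Of 7 white adipocyte markers 6 were lower in KO. The summed FPKM of the 7 was 12250 in WT and 8869 in KO (log2 -0.47), with Adipoq at 1207 and 853. Fabp4 alone, at 7677 and 5523 (-0.48), made up most of that sum. Lep was the exception, at 27.7 and 67.9 (1.29), and Plin1 was nearly level, at 392 and 374 (-0.07). All 6 brown fat markers were lower, with a sum of 142 and 57.2, among them Ucp1 at 43.3 and 8.48 (-2.35), Cidea at 52.3 and 19.7 (-1.41) and Elovl3 at 1.69 and 0.268. The sum includes Cpt1b, whose row is merged with BC090627 and Chkb, at 32.8 and 24.1 (-0.44). All 12 skeletal muscle markers were higher, with a sum of 1409 and 2363, among them Acta1 at 328 and 526, Ckm at 214 and 338 and Mb at 2.07 and 7.54.

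The 6 luminal markers were all higher in KO (sum 603 and 823, Krt8 at 119 and 197), as were the 5 myoepithelial markers (sum 298 and 481, Krt14, merged with Krt16, at 22.9 and 38.7). All 5 B cell markers were lower, with a sum of 97.4 and 52.6. Most of this sum was Cd79a, merged with Arhgef1, at 70.3 and 48.3 (-0.54). The other B cell markers had log2 ratios from -3.50 to -2.09, so the sum understates their difference. No marker was at 0 in either genotype. The subunit transcripts were lower beside the fat markers, and Cox6a2 was higher beside the muscle markers. Most subunits, Cox7a1 and Cox8b among them, were lower while the muscle markers were higher. The part of the marked cell types in the differences of the subunits was not tested.

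**Figure D5:**
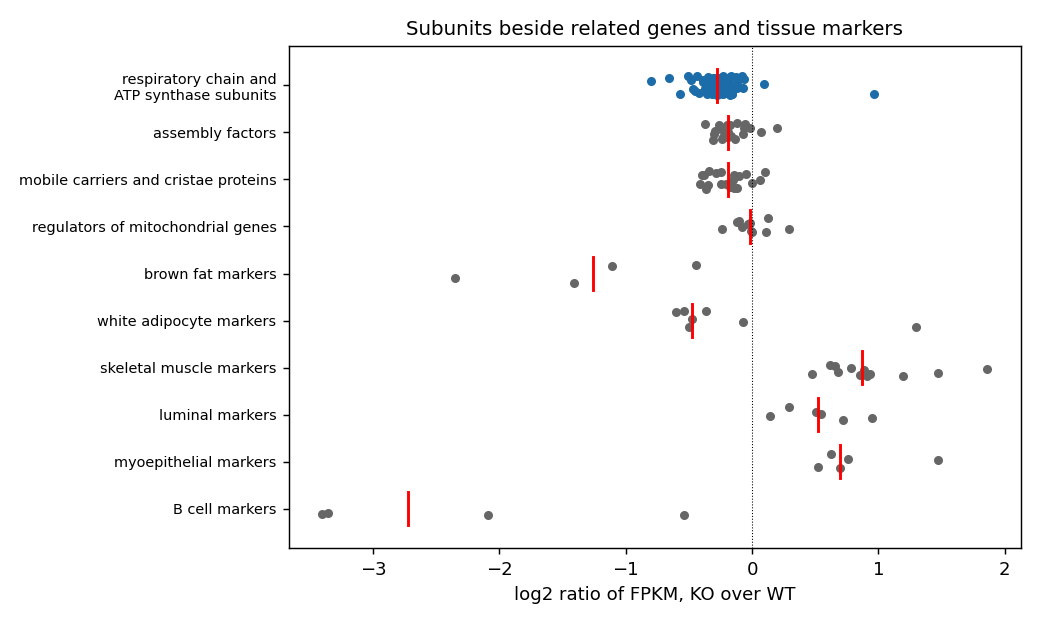
Log2 ratio of FPKM, KO over WT, of the subunit transcripts (blue) beside related genes and tissue markers (grey), for genes above 5 FPKM in at least 1 genotype (red bars, medians). The subunits centre on -0.28, the white adipocyte markers on -0.48 and the skeletal muscle markers on 0.87.

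The row of the deleted gene does not check the genotypes. It is merged as Mir21 and Vmp1 (chr11:86397276-86497345), whose long host transcript was at 42.5 FPKM in WT and 68.2 in KO, and poly(A) RNA does not measure the mature miRNA.

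Reads from near-identical copies and overlapping genes are a limit on single members. A second place in the genome matched at least 200 nucleotides at 95% identity for 26 members. These 26 had a median of -0.26 with 25 lower, and the other 54 above 5 FPKM a median of -0.29 with 53 lower. Exons of another coding gene overlapped those of 15 members (median -0.21, 14 lower), and the other 65 had a median of -0.28, with 64 lower. The direction of the members depends little on scaling. With FPKM set to equal sums over named genes 75 of the 80 members stayed lower, against 34.3% of named loci under that scaling. Atp5g1, Atp5e and Ndufb2 then had ratios above 0.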

How the data were processed

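Poly(A) RNA of mammary gland from 2 WT and 2 KO mice was sequenced by the authors. Per the labels the submitters' processing notes name CASAVA, TopHat and the build mm9, without versions. The authors deposited a single Cuffdiff table with an FPKM value per locus and genotype, pooled over the mice, which leaves the sequencing depth unknown. The table also holds the authors' own comparison (fold change, test statistic, p-value, q-value and call), which was not used. The log2 ratio of KO over WT FPKM was computed with no pseudocount for loci above 5 FPKM in at least 1 genotype. A name was taken once, at its locus of highest mean FPKM, and lists were scored by counts and medians. With 1 pooled value per genotype no test was run, the planned fits over mice could not be made, and calls were made by fold limits of 1.2, 1.3 (main), 1.5 and 2.

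Genes named in the text are, per complex, the most abundant and the lowest and highest ratio, members past 1.5-fold, isoforms, core complex I and complex II subunits, seed matches, members under 5 FPKM and merged loci, and in lists the extremes and the defining markers, apart from some genes that are not reported here. Other members past 1.3-fold, and a few further genes given for their known roles, were added after their values were seen. The members and lists were chosen with earlier results of these data known. Alternatives added after seeing the data were the 1.2-fold limit, leaving out Ndufs1, a minimum of 50 FPKM, leaving out members with another place in the genome, COX7A shares without Cox7a2l, and the ribosomal and proteasome comparisons.

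Gene models came from the GENCODE annotation of mm9, other genomic places from blastn 2.17.0, and promoters and miRNA from RefSeq (GRCm38.p6, matched by symbol). Coordinates count from 1. The calculations used Python 3.11.15, numpy 2.4.6, pandas 2.3.3 and matplotlib 3.10.9, and the functions were tested on simulated data.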

Additional observations from a re-analysis of the deposited data

How the results depend on the processing

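No paired analysis was possible because each genotype has a single pooled value, and leaving out a mouse was not run for the same reason. A median was taken to have moved when it changed by more than the SD of the log2 ratios of its own group (all members or the complex), and a count when it changed by more than 1.5 times. Under the alternatives 18 values moved, 1 reversed and 138 did neither. Some of the 138 could not change. No member has several loci, so summing loci left the members as they were. Leaving out genes of a complex cannot alter the medians of the other complexes. The tally is therefore no measure of how stable the results are. The reversed value was the change in the share of Cox7a2 within COX7A, -4.84 percentage points with Cox7a2l counted in the sum and 4.48 without it. Scaling to equal sums over all loci lowered every ratio by 0.63 on the log2 scale, since unnamed loci of KO hold more FPKM. The medians were then -0.91 for all members, -0.90 for complex I, -0.94 for complex II, -0.94 for complex III, -0.94 for complex IV and -0.84 for complex V, with 79 members lower and 0 higher by 1.3-fold, but all named loci had a median of -0.66 and 89.0% of them were lower by 1.3-fold. Equal sums over named genes raised every ratio by 0.10, with medians of -0.22 for complex III and -0.11 for complex V and 5 members lower by 1.3-fold (6.07% of named loci). The median of the members less that of all named loci is the same under every scaling. Fold limits of 1.2, 1.5 and 2 gave 45, 2 and 0 members lower, and at 2-fold 0 were higher. No member was higher by 1.3-fold (0) without Cox6a2, Cox7a1 and Cox8b or above 50 FPKM. The depth behind each FPKM value is unknown, so no counting error could be given.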
